A study of Mus musculus with 6 samples.

Results

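The genes described here are 47 genes that drive or mark the cell cycle, taken by symbol and sorted by the phase in which they act: 10 of G1, 11 of S phase and 26 of G2 and mitosis, called mitotic below. For each gene the probe set that the platform annotation gives to that symbol alone was used, and where there were several, the one with the highest mean over all 6 arrays. This gave values for 46 of the 47 genes, out of 18193 genes measured; the cyclin Ccnb1 is not analysed here. The KO livers (n = 3) carry the genotype L Pex5 -/-, the loss in liver of the receptor that imports matrix proteins into peroxisomes, and the WT livers (n = 3) are labelled WT. All 6 livers came from male mice aged 10 weeks, and both groups carry the same background label, which describes a mixed stock, Tac:[Sw]fBR, and names Alb-Cre, a recombinase whose albumin promoter acts in hepatocytes. Whether the WT mice carried Cre is not stated there. Total RNA of whole liver was hybridised to Affymetrix mouse arrays, 1 array per liver, and the values are log2 levels.

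A cell leaves rest through G1, when D-type cyclins with Cdk4 and Cdk6 phosphorylate the RB protein and release E2F factors. E2F targets such as the MCM helicase then serve DNA replication in S phase, and in G2 a second wave of genes, kept silent in resting cells by the DREAM complex, builds the mitotic machinery. Hepatocytes of an adult liver are almost all at rest but can enter the cycle again after injury or loss of tissue.

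Pex5 itself had 9.35, 9.19 and 9.13 in KO livers, against 9.14, 8.88 and 9.11 in WT livers, a difference of 0.18 ± 0.11 (SE, n = 3 each; adjusted p = 0.262). Where its probes lie relative to the deleted part is not given, so this does not check the labels. Array medians ran from 5.04 to 5.10, and arrays correlated across genes at 0.989 or more within groups and at 0.976 or less between them. KO liver 3 stood apart in erythroid genes, of which Slc4a1, the anion exchanger of red cells, is named after its values were seen. It had 4.63, 4.38 and 6.56 in KO livers, against 4.83, 4.43 and 4.55 in WT livers, and the mean of 6 erythroid genes was 5.31, 5.29 and 6.15 in KO livers, against 5.49, 5.20 and 5.49 in WT livers. The number of arrays limits the precision. Each p-value sets a difference between the groups against the spread of livers within them, which eBayes draws towards a value estimated from all genes.

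Many genes of the cell cycle rose in KO livers. Most of those called belong to mitosis, which also holds 25 of the 46 measured genes. Of the 46 measured genes, 24 were higher in KO livers and 2 lower at a Benjamini-Hochberg adjusted p under 0.05 (limma, adjusted over all genes), a share of 52.2% higher and 4.35% lower. Over all 18193 genes the shares were 14.2% higher and 9.75% lower. The median difference, KO minus WT, was 0.50 on the log2 scale for the 46 genes and -0.05 for all genes. All 3 KO arrays lay above all 3 WT arrays for 29 of the 46 genes and below them for 6; over all genes these shares were 22.1% above and 22.6% below. By phase, 3 of 10 G1 genes were higher and 0 lower, with a median difference of 0.16. In S phase 5 of 11 were higher and 1 lower, with a median of 0.38, and among the 25 measured mitotic genes 16 were higher and 1 lower, with a median of 0.79. The difference between phases is given by these counts and medians and was not tested. Leaving out KO liver 3 gave 24 genes higher, 1 lower and a mitotic median of 0.85. All directions are relative to the bulk of genes: 45 bacterial and phage control probe sets averaged 9.29, 9.31 and 9.23 in KO livers, against 9.73, 9.67 and 9.75 in WT livers. Centring on them adds 0.44 to every difference, which makes 38 of the 46 genes higher and leaves Tk1 as the 1 that is lower. Of all 18193 genes it makes 11086 higher and 475 lower. The medians are then 0.60, 0.82 and 1.23 for G1, S and mitotic genes and 0.39 for all genes.

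**Figure D1:**
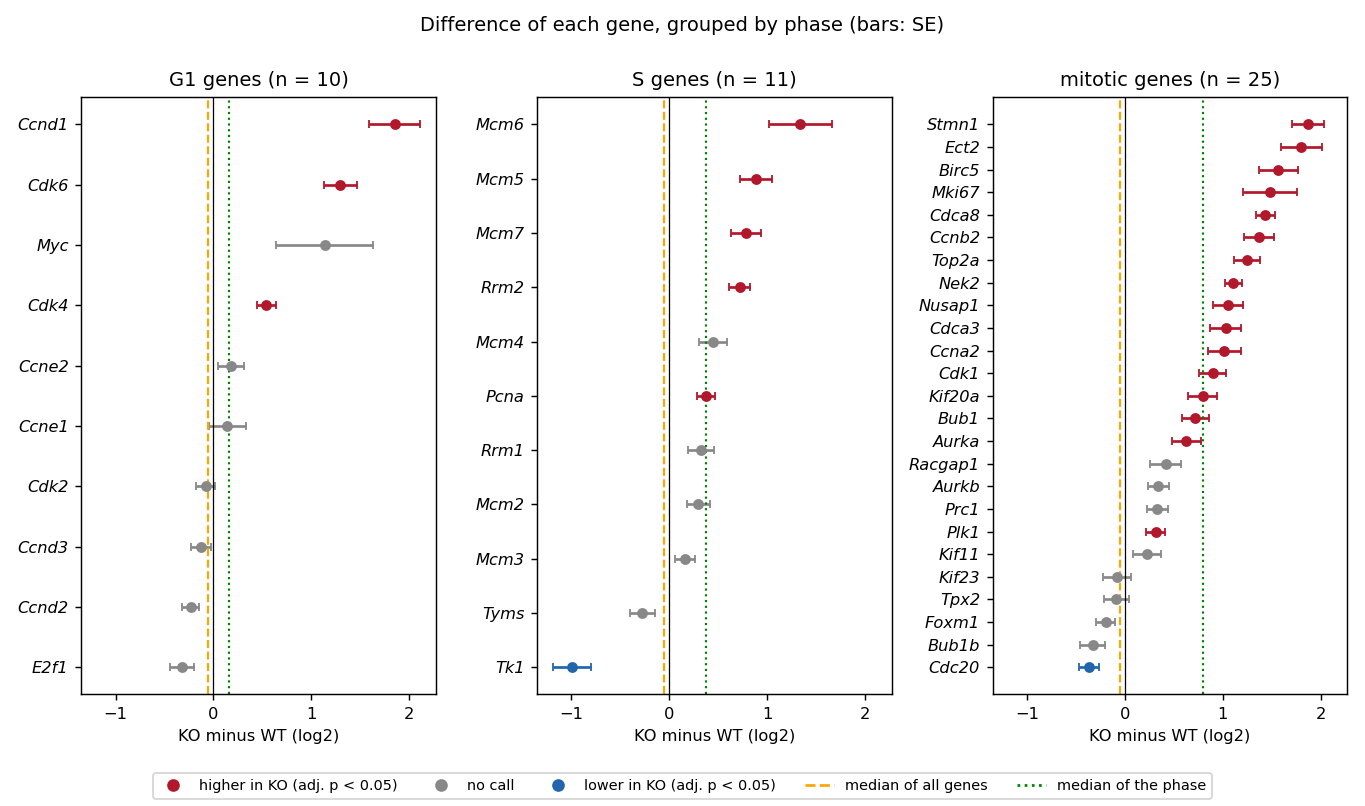
Difference in log2 level, KO minus WT (x axis), of the 46 measured genes, 1 panel per phase; points are means over 3 KO minus 3 WT livers, bars the standard error, and colour the call at an adjusted p under 0.05. The mitotic panel, with 25 of the 46 genes, has its median at 0.79 and holds 16 of the 24 genes called higher. The G1 median is 0.16 and the median of all genes -0.05. The differences of genes below background in WT livers are drawn as measured and do not fix the size.

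By the median, the shift of the mitotic and S phase genes was present in each KO liver. The median deviations of the G1 genes lay closer together in KO and WT livers. The WT livers are part of the mean used here, which keeps their own deviations near 0. Against the mean of the WT livers, the median deviation of the mitotic genes was 0.70, 0.99 and 0.53 in KO livers 1 to 3, against -0.05, -0.01 and 0.06 in WT livers 1 to 3. For the S phase genes it was 0.38, 0.50 and 0.33 in the KO livers, against 0.11, 0.02 and -0.07 in the WT livers. The G1 genes deviated by 0.14, 0.09 and 0.25 in the KO livers, against -0.14, 0.04 and 0.05 in the WT livers. Their mean levels were further apart, at 7.15, 7.30 and 7.32 in the KO livers, against 6.66, 6.93 and 6.86 in the WT livers. The G1 list joins unlike genes. The median difference was 0.84 for its 6 genes of D cyclins, Cdk4, Cdk6 and Myc, and 0.03 for its 4 genes of the G1/S switch. By median deviation, KO liver 3 was the lowest of its group for the mitotic and S genes and the highest for the G1 genes. By mean level, KO liver 1 was the lowest for the mitotic genes, at 5.46, against 5.68 and 5.62 in KO livers 2 and 3. Without WT liver 1 the median of the G1 genes was 0.0012.

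Promoters of 5 genes are printed below as examples and do not stand for their phases, whose shares follow after them. They are RefSeq sequences of GRCm38.p6 from 150 bases before to 50 bases after the start site, written 5′ to 3′ along the gene. Capitals mark 3 motifs searched on both strands: the box CCAAT, bound by NF-Y; the CHR element TTTGAA, through which DREAM and B-MYB act; and the E2F site in the spellings TTTCCCGC, TTTCGCGC, TTTGCCGC and TTTGGCGC. A motif on the other strand appears as its reverse complement. Ccnb2 lies on the minus strand at chr9:70421505-70421704, Cdk1 on the minus strand at chr10:69352863-69353062 and Cdc20 on the minus strand at chr4:118437294-118437493. Mcm6 lies on the minus strand at chr1:128359656-128359855 and Cdk4 on the plus strand at chr10:127063385-127063584. The first 3 are mitotic genes and were chosen to set a gene that was called higher on its only probe set (Ccnb2, Cdk1) beside one whose probe sets went both ways (Cdc20). Mcm6 is a gene of S phase and Cdk4 one of G1.
Ccnb2: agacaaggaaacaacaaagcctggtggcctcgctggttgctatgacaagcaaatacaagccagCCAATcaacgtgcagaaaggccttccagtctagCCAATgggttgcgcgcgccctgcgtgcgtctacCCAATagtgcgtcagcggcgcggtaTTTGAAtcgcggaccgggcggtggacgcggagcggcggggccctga
Cdk1: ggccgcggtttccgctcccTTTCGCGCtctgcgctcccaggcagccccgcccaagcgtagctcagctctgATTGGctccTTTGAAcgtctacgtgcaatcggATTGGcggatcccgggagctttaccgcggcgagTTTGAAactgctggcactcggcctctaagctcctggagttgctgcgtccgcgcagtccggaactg
Cdc20: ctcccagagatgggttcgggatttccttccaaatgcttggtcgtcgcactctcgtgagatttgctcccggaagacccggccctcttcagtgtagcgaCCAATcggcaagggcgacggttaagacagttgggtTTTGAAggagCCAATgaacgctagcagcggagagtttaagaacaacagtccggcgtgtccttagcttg
Mcm6: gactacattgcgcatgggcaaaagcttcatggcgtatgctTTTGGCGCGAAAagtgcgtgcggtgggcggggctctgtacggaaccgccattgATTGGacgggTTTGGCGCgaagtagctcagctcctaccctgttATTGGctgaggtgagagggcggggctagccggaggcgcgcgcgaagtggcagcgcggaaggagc
Cdk4: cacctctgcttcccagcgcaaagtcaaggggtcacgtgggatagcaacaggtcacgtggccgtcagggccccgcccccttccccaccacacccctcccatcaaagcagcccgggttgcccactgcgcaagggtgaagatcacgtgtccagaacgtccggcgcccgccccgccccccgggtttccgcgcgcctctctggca
In these windows Ccnb2 had 3 CCAAT boxes and 1 CHR element, and Cdk1 had 2 CCAAT boxes, 2 CHR elements and 1 E2F site. Cdc20 had 2 CCAAT boxes and 1 CHR element. Mcm6 had 2 CCAAT boxes and 3 E2F matches, of which a pair overlap on opposite strands, and Cdk4 held none of the 3 motifs.

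Over promoters of 300 bases, 250 before and 50 after the start, RefSeq sequence was matched for 35 of the 46 measured genes. Genes were counted, and a gene held a motif when any of its listed promoters did. Mcm7, Ect2, Prc1 and Ccnd3 had more than 1 promoter listed. The CHR element occurred in 15 of 19 mitotic genes (78.9%), in 1 of 10 S genes (10.0%) and in 0 of 6 G1 genes, against 15.7% of 14452 genes tested. A CCAAT box occurred in 89.5% of the mitotic, 80.0% of the S and 33.3% of the G1 genes, against 42.0% of all. An E2F site occurred in 4 of 10 S genes (40.0%), in 1 of 19 mitotic genes (Cdk1, 5.26%) and in 1 of 6 G1 genes (16.7%), against 3.81% of all. Split by call and not by phase, the CHR element stood in 45.0% of the 20 genes called higher and in 46.7% of the 15 not called higher. These matches describe the letters of the windows, and binding was not measured.

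**Figure D2:**
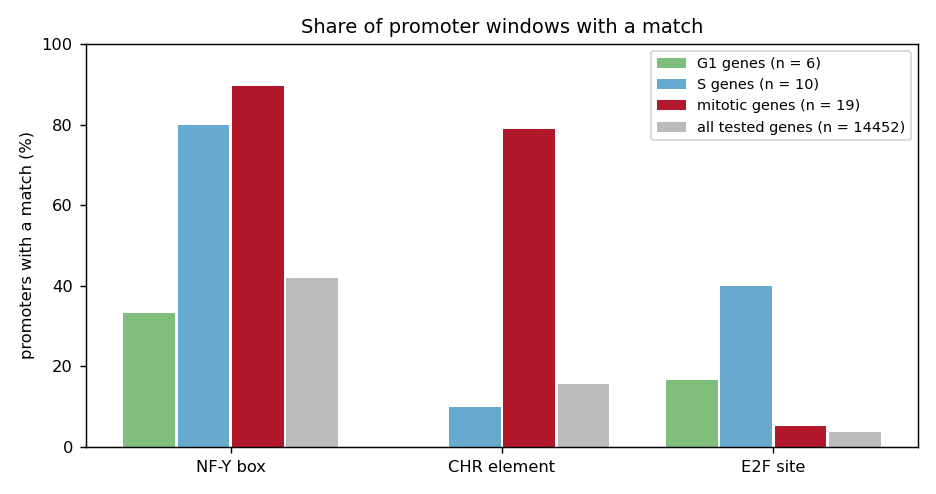
Share of genes with a match in at least 1 listed promoter, in percent (y axis), for the NF-Y box, the CHR element and the E2F site, in G1, S and mitotic genes and in all tested genes. The CHR element was found in 78.9% of mitotic genes against 15.7% of all, and the E2F site was most frequent in S phase genes, at 40.0%.

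The 3 G1 genes called higher were cyclin D1 and its partner kinases. Ccnd1, the cyclin that couples growth signals to the cycle, had 8.49, 9.24 and 8.89 in KO livers, against 6.86, 6.66 and 7.55 in WT livers. Every KO liver lay above every WT liver, and the difference was 1.85 ± 0.26 (SE, n = 3 each; adjusted p = 0.00204), or 3.61-fold. Cdk6 measured 8.59, 9.01 and 8.46 in KO livers, against 7.59, 7.45 and 7.13 in WT livers, a difference of 1.30 ± 0.17 (adjusted p = 0.00161). For Cdk4 the levels were 8.50, 8.73 and 8.58 in KO livers, against 8.08, 8.03 and 8.08 in WT livers. Its difference of 0.54 ± 0.09 (adjusted p = 0.00533) was smaller, but again no KO liver overlapped a WT liver. All 3 probe sets of each of these 3 genes were higher in KO livers, with differences between 1.39 and 1.85 for Ccnd1, between 0.63 and 1.30 for Cdk6 and between 0.54 and 1.11 for Cdk4. The other D cyclins gave no call: Ccnd2 differed by -0.23 ± 0.08 (adjusted p = 0.0802) and Ccnd3 by -0.13 ± 0.11 (adjusted p = 0.410).

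Myc, a transcription factor induced by growth factors, had the widest error of the 46 genes. It had 8.33, 8.46 and 9.47 in KO livers, against 6.90, 8.78 and 7.17 in WT livers. WT liver 2 lay above KO livers 1 and 2, so the groups overlapped, and the difference of 1.14 ± 0.50 did not pass (adjusted p = 0.131). Without WT liver 2 it was 1.72 with an adjusted p of 0.0138, the lowest in a range of 0.0138 to 0.329 over 14 alternatives.

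The genes of the G1/S switch itself gave no call. E2f1, the activating E2F factor, had 5.21, 5.21 and 4.91 in KO livers, against 5.31, 5.38 and 5.60 in WT livers. All KO livers lay below all WT livers, by -0.32 ± 0.12 (adjusted p = 0.0986). Cyclin E1, Ccne1, differed by 0.14 ± 0.19, and its kinase partner Cdk2 by -0.08 ± 0.09. Cyclin E2, Ccne2, lay below background on every array; background here is 4.90, the 95th percentile of the mean levels of 39 olfactory receptor genes. The 95% interval ran from -0.30 to 0.58 for Ccne1 and from -0.30 to 0.14 for Cdk2.

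**Figure D3:**
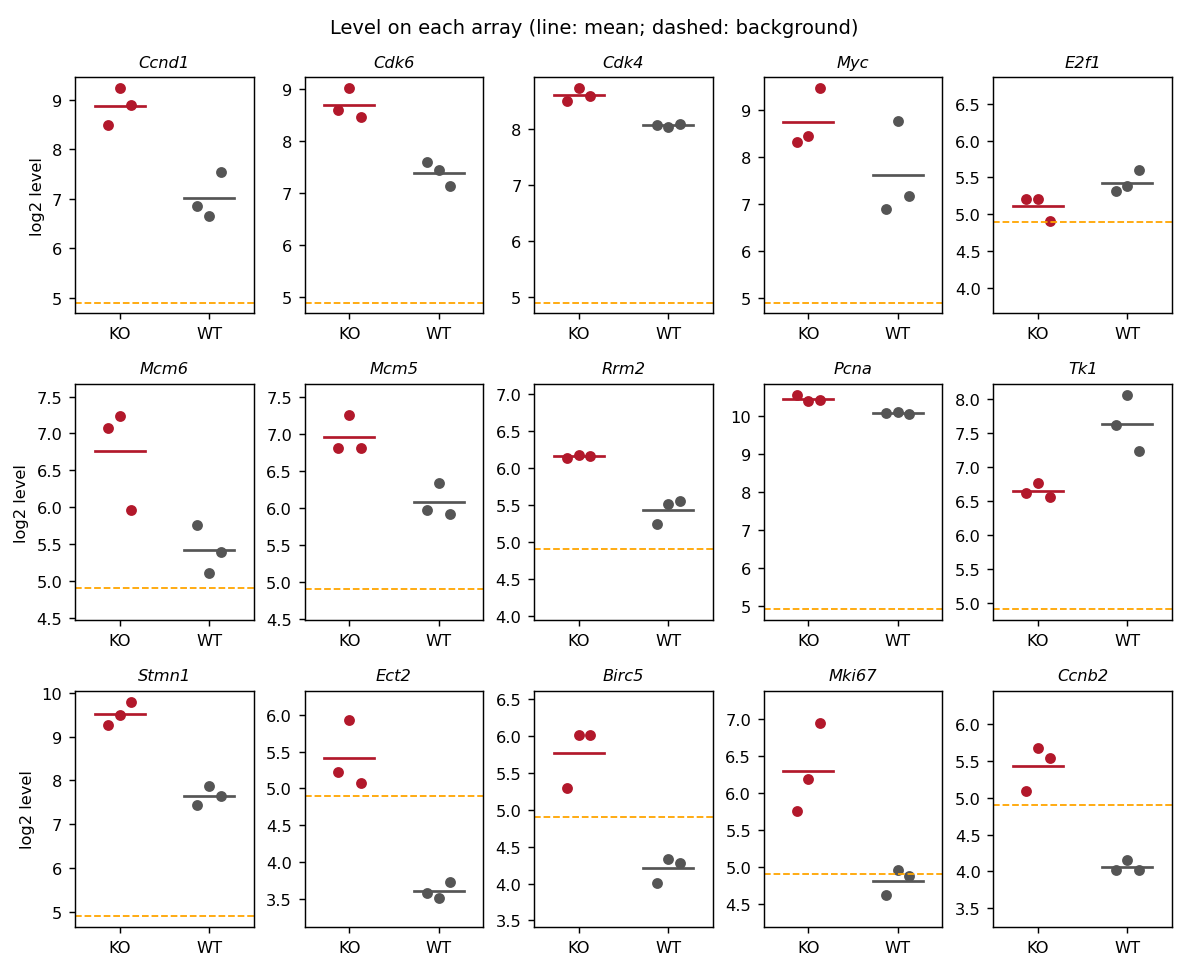
Log2 level on each array (y axis, own scale per panel) of 15 genes of G1 (top row), S phase (middle row) and mitosis (bottom row), with KO livers left and WT livers right; lines are group means and the dashed line is background at 4.90. For Ccnd1 the KO livers sit between 8.49 and 9.24 and the WT livers between 6.66 and 7.55; Tk1 and E2f1 run the other way, and Myc overlaps.

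In S phase the subunits of the MCM helicase, which unwinds DNA at replication forks, all had positive differences, and 3 of 6 passed. Mcm6 had 7.07, 7.23 and 5.97 in KO livers, against 5.75, 5.10 and 5.39 in WT livers, a difference of 1.34 ± 0.32 (adjusted p = 0.0203). KO liver 3 was close to WT liver 1, and the call was lost without KO liver 1 (adjusted p = 0.0773), KO liver 2 (0.0763), WT liver 2 (0.0620) or WT liver 3 (0.0505), within a range of 0.00147 to 0.0773 over 14 alternatives. Mcm5 had 6.82, 7.26 and 6.81 in KO livers, against 5.97, 6.34 and 5.92 in WT livers. The difference of 0.89 ± 0.16 (adjusted p = 0.00669) was 0.40 (adjusted p = 0.0949, the highest of 14 alternatives that began at 0.000408) when its 3 probe sets were averaged. Mcm7 measured 9.04, 9.21 and 8.92 in KO livers, against 8.53, 8.29 and 7.98 in WT livers, a difference of 0.79 ± 0.15 (adjusted p = 0.00849). Mcm4 differed by 0.45 ± 0.15 (adjusted p = 0.0590), Mcm2 by 0.30 ± 0.12 (adjusted p = 0.110) and Mcm3 by 0.16 ± 0.10 (adjusted p = 0.279).

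The genes of nucleotide supply moved in both directions. Rrm2, the regulated subunit of ribonucleotide reductase, had 6.14, 6.18 and 6.17 in KO livers, against 5.25, 5.51 and 5.55 in WT livers. The KO livers hardly differed from each other and lay above all WT livers, by 0.72 ± 0.11 (adjusted p = 0.00255). Its partner subunit Rrm1 differed by 0.33 ± 0.13 (adjusted p = 0.105; 0.0489 without WT liver 1, within a range of 0.00238 to 0.244). Tk1, the thymidine kinase of the salvage pathway, was lower: it had 6.61, 6.77 and 6.56 in KO livers, against 7.62, 8.06 and 7.23 in WT livers. All KO livers lay below all WT livers, by -0.99 ± 0.19 (adjusted p = 0.00899), which is 1.99-fold higher in WT livers. This was the only member lower in KO livers under all 14 alternatives; it has 1 probe set on the array. Thymidylate synthase, Tyms, lay below background on every array, so its difference of -0.28 ± 0.13 gives no fold.

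Pcna, the sliding clamp of the replication fork, had 10.54, 10.39 and 10.40 in KO livers, against 10.08, 10.09 and 10.05 in WT livers. The WT livers were tightly grouped and the groups did not overlap, with a difference of 0.38 ± 0.09 (adjusted p = 0.0185), or 1.30-fold. Leaving out KO liver 1 gave an adjusted p of 0.0834 and leaving out KO liver 2 one of 0.0513, in a range of 0.000302 to 0.0834.

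Of the 8 measured genes of mitotic entry, 7 were higher in KO livers. Cdk1, the kinase that drives entry into mitosis, had 6.61, 6.90 and 6.90 in KO livers, against 5.75, 6.15 and 5.82 in WT livers, a difference of 0.90 ± 0.14 (adjusted p = 0.00305). Its cyclins rose with it. Ccna2 had 6.08, 6.65 and 6.60 in KO livers, against 5.27, 5.60 and 5.42 in WT livers, a difference of 1.01 ± 0.17 (adjusted p = 0.00421). Ccnb2 had 5.09, 5.68 and 5.54 in KO livers, against 4.02, 4.16 and 4.02 in WT livers. All WT livers lay below background, so the rise is given as a bound: the KO mean was 5.44 and the WT mean 4.07, at least 1.45-fold higher in KO livers with WT held at background, at an adjusted p of 0.000736.

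Nek2, a kinase that separates the centrosomes, had 6.13, 6.22 and 6.24 in KO livers, against 5.11, 5.05 and 5.10 in WT livers. Both groups were tight and far apart on this probe set, with a difference of 1.11 ± 0.09 (adjusted p = 0.000111). Of its 3 other probe sets, none was called: the brighter one had 5.47, 5.51 and 5.70 in KO livers, against 5.17, 5.10 and 5.60 in WT livers, so the groups overlapped, at 0.27 ± 0.15 (adjusted p = 0.230), and the other 2 lay below background. Cdca3, which triggers destruction of the mitosis-blocking kinase WEE1, differed by 1.03 ± 0.16 (adjusted p = 0.00289; 0.0966 with its probe sets averaged, the highest of a range that began at 0.000131), with 2 of its 3 WT arrays below background. Aurora kinase A, Aurka, had 6.01, 5.92 and 5.57 in KO livers, against 5.39, 5.18 and 5.04 in WT livers, a difference of 0.63 ± 0.14 (adjusted p = 0.0173). KO liver 3 was its lowest KO array, and the call was lost without KO liver 1 (adjusted p = 0.0707), without KO liver 2 (0.0713) and with probe sets averaged (0.149), in a range of 0.000460 to 0.149. Polo-like kinase 1, Plk1, had 5.32, 5.54 and 5.47 in KO livers, against 5.08, 5.12 and 5.18 in WT livers. Its difference of 0.31 ± 0.10 was at the threshold (adjusted p = 0.0481) and was lost without any 1 of the 6 arrays, at adjusted p from 0.0534 to 0.165, the range over all alternatives being 0.000523 to 0.165. Foxm1, the transcription factor that activates many G2 genes, differed by -0.20 ± 0.10 (adjusted p = 0.183), with overlapping groups.

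The chromosomal passenger complex, which corrects attachments of chromosomes to the spindle, and the chromosome proteins measured with it gave 4 genes higher of 5. Birc5, or survivin, had 5.30, 6.02 and 6.01 in KO livers, against 4.002, 4.34 and 4.28 in WT livers. Cdca8, or borealin, had 6.02, 6.02 and 5.91 in KO livers, against 4.70, 4.46 and 4.48 in WT livers. For both genes every WT array lay below background and every KO array above it. The rise was at least 1.84-fold for Birc5 (KO mean 5.78, WT mean 4.21; adjusted p = 0.00136) and at least 2.12-fold for Cdca8 (KO mean 5.98, WT mean 4.54; adjusted p = 7.05e-05). Aurkb, the kinase of the complex, lay below background on every array, at a difference of 0.34 ± 0.11 (adjusted p = 0.0511). Top2a, the topoisomerase that disentangles chromosomes, had 5.70, 6.12 and 6.02 in KO livers, against 4.67, 4.60 and 4.84 in WT livers, at least 2.07-fold higher in KO livers (KO mean 5.95, WT mean 4.70; adjusted p = 0.000521).

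Mki67, the gene of the Ki-67 proliferation antigen, had 5.75, 6.19 and 6.96 in KO livers, against 4.62, 4.95 and 4.88 in WT livers. The groups did not overlap, KO liver 3 was highest, and 2 of 3 WT arrays were below background. The difference was 1.48 ± 0.27 (adjusted p = 0.00676), the widest error among the mitotic genes.

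Spindle and cytokinesis genes gave 4 calls among 9 measured, all higher. Stmn1, or stathmin, which destabilises microtubules, had 9.27, 9.49 and 9.79 in KO livers, against 7.43, 7.87 and 7.63 in WT livers. With a difference of 1.87 ± 0.16 (adjusted p = 0.000219), or 3.66-fold, it had the largest difference of the 46 genes, and both of its probe sets were higher. Ect2, the exchange factor that activates RhoA for the cleavage furrow, had 5.22, 5.93 and 5.07 in KO livers, against 3.58, 3.51 and 3.73 in WT livers. All WT arrays were below background, which gives a rise of at least 1.42-fold (KO mean 5.41, WT mean 3.61; adjusted p = 0.000889). Nusap1, which bundles spindle microtubules, had 4.91, 5.30 and 5.52 in KO livers, against 4.25, 4.15 and 4.17 in WT livers, at least 1.27-fold higher in KO livers (KO mean 5.24, WT mean 4.19; adjusted p = 0.00239). Kif20a, a kinesin of the central spindle, was called higher (0.79 ± 0.15, adjusted p = 0.00730) although all 6 arrays were below background, and the same held for the checkpoint kinase Bub1 (0.72 ± 0.14, adjusted p = 0.00856), so neither is given a fold.

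The remaining spindle and cytokinesis genes gave no call. Prc1, which bundles antiparallel microtubules, differed by 0.33 ± 0.11 (adjusted p = 0.0542; 0.0252 without WT liver 3, in a range of 0.000688 to 0.154). Racgap1 differed by 0.42 ± 0.15 below background (adjusted p = 0.0870; 0.0225 without KO liver 3, in a range of 0.00131 to 0.251). The kinesin Kif11 (0.23 ± 0.14) and the spindle assembly factor Tpx2 (-0.09 ± 0.13) lay below background on every array, and the kinesin Kif23 differed by -0.08 ± 0.14. In all, 8 of the 46 genes lay below background on every array of both groups, and 6 more did so on every WT array while their KO arrays were not all below it.

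Cdc20, the activator of the anaphase-promoting complex, was the mitotic gene called lower, and its probe sets did not run the same way. The probe set used had 6.33, 6.54 and 6.60 in KO livers, against 6.77, 6.84 and 6.96 in WT livers, a difference of -0.37 ± 0.11 (adjusted p = 0.0405). That call was lost without KO liver 1 (adjusted p = 0.141), KO liver 2 (0.0962), KO liver 3 (0.0566), WT liver 2 (0.0812) or WT liver 3 (0.0854), in a range of 0.00165 to 0.578. The second probe set of Cdc20 had 6.43, 6.76 and 6.12 in KO livers, against 4.58, 4.66 and 4.63 in WT livers. Its WT arrays were all below background, so the rise is at least 2.90-fold (KO mean 6.44, WT mean 4.62; adjusted p = 0.000229). The third had 5.79, 6.55 and 6.10 in KO livers, against 4.54, 4.65 and 4.90 in WT livers, a difference of 1.45 ± 0.19 (adjusted p = 0.00179), with 2 of 3 WT arrays below background. With all 3 averaged, Cdc20 was higher in KO livers by 0.96 (adjusted p = 0.00165). The probe set used and the third carry the ending x in their names, which Affymetrix gives to probe sets with probes that can match other transcripts; 6 of the 46 genes were read from such a probe set (Aurkb, Ccne1, Cdc20, Cdk4, Mcm3 and Mcm5). Bub1b, a checkpoint kinase that holds Cdc20 inactive, differed by -0.33 ± 0.13 (adjusted p = 0.103; 0.0373 without WT liver 2, in a range of 0.0373 to 0.628).

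Across all probe sets of the 46 genes, 44 of 116 were higher and 3 lower, where 11.9% of 34945 single-symbol probe sets were higher and 7.93% lower. Of the 70 probe sets not used above, 21 were higher and 1 lower, the latter a dim probe set of E2f1 (-0.37 ± 0.10, adjusted p = 0.0368), and 35 lay below background on every array. Among the 35 genes with several probe sets, 7 were higher on all of them, and Cdc20 alone had calls in both directions. For 4 genes with no call, another probe set was called higher. For Mcm3 it was above background and higher by 0.82 (adjusted p = 0.00250), while for Kif11, Tpx2 and Prc1 it lay below background on all 6 arrays, so no size is given. When all probe sets of a gene were averaged, the call held but the difference shrank by more than 1.5 times for Nek2 (0.38, adjusted p = 0.0361), Top2a (0.39, adjusted p = 0.0278), Nusap1 (0.38, adjusted p = 0.0383), Bub1 (0.36, adjusted p = 0.0323) and Cdca8 (0.87, adjusted p = 0.00101). Counting any probe set, 28 of the 46 genes had one that was higher in KO livers. That count grows with the number of probe sets per gene. The share of all genes higher on any or on all of their probe sets was not computed, so neither count is set against a background.

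**Figure D4:**
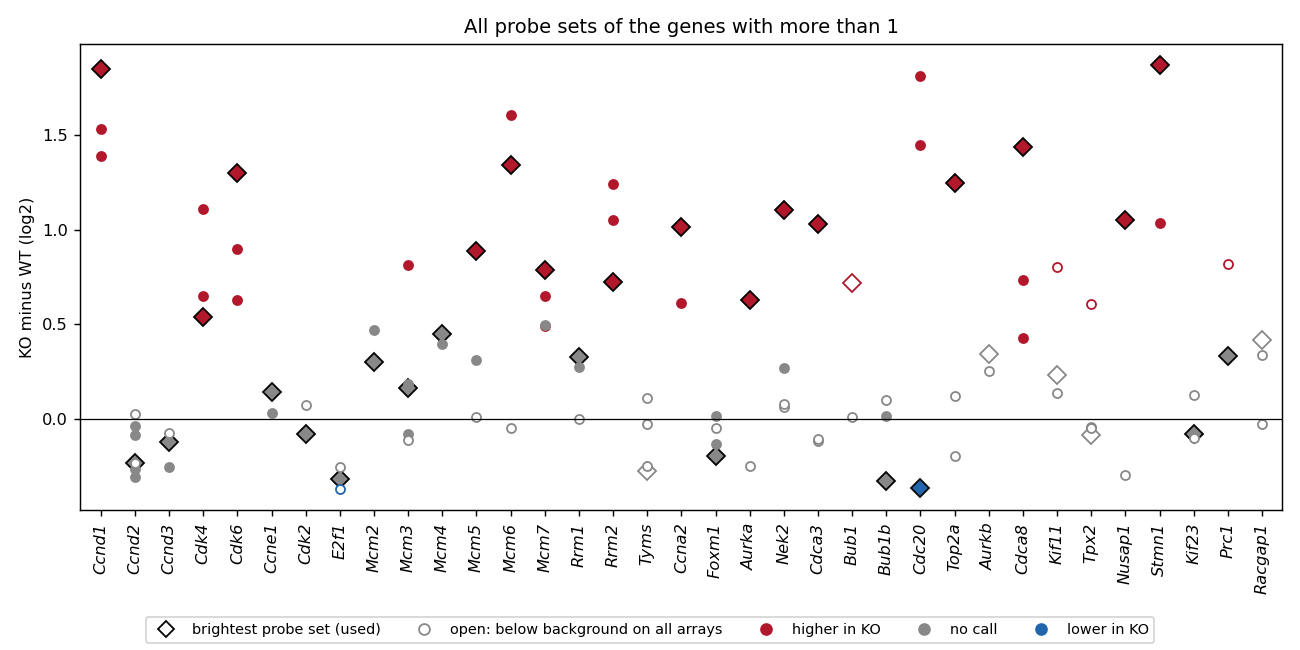
Difference in log2 level, KO minus WT (y axis), of every probe set of the 35 genes with more than 1; diamonds mark the probe set used, open symbols those below background on all 6 arrays, and colour the call. Cdc20 is the gene with calls in both directions. Differences of probe sets whose WT arrays are below background, such as the topmost of Cdc20, are drawn as measured and do not fix the size.

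Of 8 genes for inhibitors of the cyclin-dependent kinases, 3 were higher in KO livers (37.5%, against 14.2% of all genes) and 0 lower (against 9.75%). Cdkn1a, or p21, the inhibitor induced by p53, had 9.01, 9.001 and 8.75 in KO livers, against 7.57, 6.76 and 6.85 in WT livers, a difference of 1.85 ± 0.21 (adjusted p = 0.000736). Cdkn2c, or p18, which binds Cdk4 and Cdk6, had 8.24, 8.36 and 8.70 in KO livers, against 7.08, 6.69 and 6.93 in WT livers, a difference of 1.54 ± 0.15 (adjusted p = 0.000385). Cdkn2b, or p15, of the same family, had 6.11, 6.74 and 5.85 in KO livers, against 4.24, 4.12 and 4.25 in WT livers. The WT arrays were all below background, which makes the rise at least 2.52-fold (KO mean 6.23, WT mean 4.20; adjusted p = 0.000455). The other 5 gave no call: Cdkn1b differed by 0.37 ± 0.17 (adjusted p = 0.157; 0.0377 without WT liver 2, in a range of 0.00770 to 0.367), Cdkn1c by 0.15 ± 0.13 and Cdkn2d by 0.38 ± 0.16 (adjusted p = 0.127; 0.0201 without WT liver 1, in a range of 0.00405 to 0.293). Cdkn2a and Cdkn3 lay below background on every array.

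**Figure D5:**
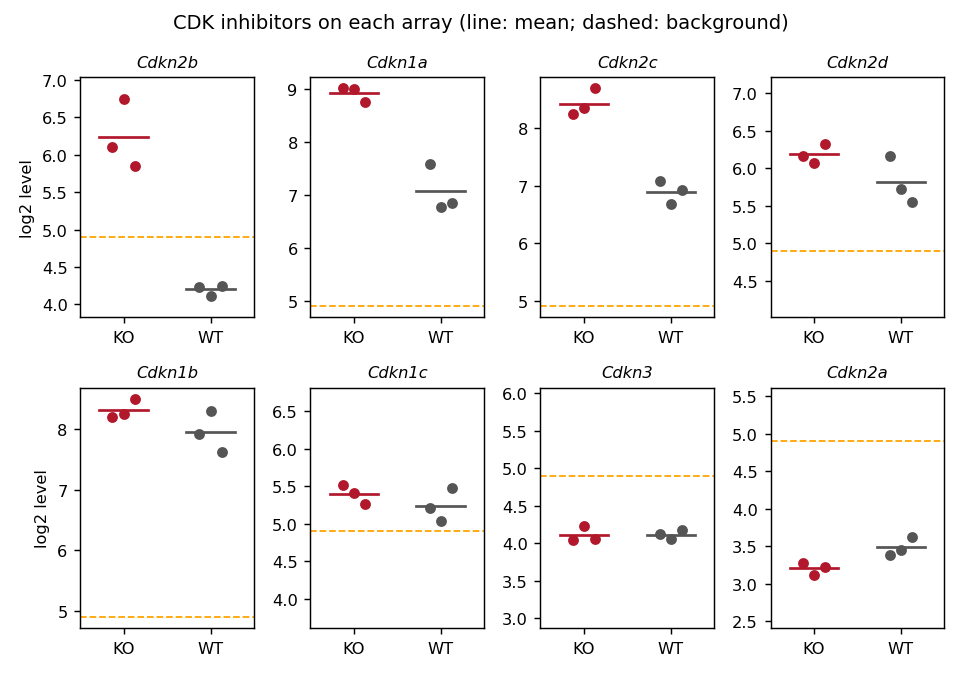
Log2 level on each array (y axis, own scale per panel) of the 8 inhibitors of cyclin-dependent kinases, KO livers left and WT livers right; lines are group means, the dashed line background at 4.90. Cdkn1a and Cdkn2c have all KO arrays above all WT arrays, by 1.85 and 1.54 in the mean, and so has Cdkn2b, whose WT arrays lie below background so that only a bound, at least 2.52-fold, is given.

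Of 18 genes of the RB, E2F and DREAM group 6 were higher (33.3%, against 14.2% of all genes) and 2 lower (11.1%, against 9.75% of all genes), with a median difference of 0.18. E2f8, a repressor among the E2F factors, was higher by 1.41 ± 0.16 (adjusted p = 0.000890), and Rb1, the retinoblastoma protein, by 0.70 ± 0.13 (adjusted p = 0.00741; 0.349 with its probe sets averaged, where the difference was 0.18). E2f3 was higher by 0.78 ± 0.20 (adjusted p = 0.0283), a call lost without KO liver 1 (0.0655), KO liver 2 (0.0647), WT liver 1 (0.0710) or WT liver 3 (0.0698), in a range of 0.00133 to 0.0710. Mybl1, a MYB family factor, was called higher below background, by 0.87 ± 0.14 (adjusted p = 0.00331). The lower ones, named after their values were seen, were the pocket protein Rbl2 (-0.65 ± 0.12, adjusted p = 0.00786) and the repressor E2f7 (-0.70 ± 0.15, adjusted p = 0.0125), which lay below background on every array. E2f7 was not called without KO liver 2 (adjusted p = 0.0518), and neither was called when centred on the control probe sets (adjusted p = 0.195 for Rbl2 and 0.161 for E2f7, the highest of ranges that began at 0.00436 and 0.00191). Such centring adds 0.44 to every difference.

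Of 43 measured genes of origin licensing and replication outside the members 7 were higher (16.3%, close to the 14.2% of all genes) and 2 lower (4.65%, against 9.75% of all genes), with a median of 0.11. The licensing factor Cdt1 was higher by 1.21 ± 0.13 (adjusted p = 0.000496) and Dbf4, the activating subunit of the Cdc7 kinase, by 1.26 ± 0.21 (adjusted p = 0.00403). Mcm10, a replication initiation factor, was lower: it had 8.67, 8.50 and 9.04 in KO livers, against 9.86, 11.02 and 10.99 in WT livers, a difference of -1.88 ± 0.30 (adjusted p = 0.00384). Fen1, the nuclease that processes Okazaki fragments, was lower by -0.69 ± 0.14 (adjusted p = 0.0119), but not with its probe sets averaged (-0.01, adjusted p = 0.958) nor without KO liver 1 (adjusted p = 0.0521), in a range of 0.00323 to 0.958.

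A list of 78 further measured mitotic genes had 25 higher (32.1%, against 14.2% of all genes) and 0 lower (against 9.75%), with a median of 0.26, and 31 of them lay below background on every array. Anln, or anillin, the scaffold of the contractile ring, had 6.38, 6.83 and 6.85 in KO livers, against 3.89, 3.68 and 3.89 in WT livers, at least 3.45-fold higher in KO livers (KO mean 6.69, WT mean 3.82; adjusted p = 1.64e-05). Ube2c, the ubiquitin-conjugating enzyme that works with the anaphase-promoting complex, was higher by 1.70 ± 0.16 (adjusted p = 0.000313). The kinetochore subunit Spc25 was higher by 1.21 ± 0.15 (adjusted p = 0.00113) and the centromere protein Cenpm by 1.21 ± 0.17 (adjusted p = 0.00197). Of 14 measured genes of the DNA damage checkpoint 6 were higher (42.9%, against 14.2% of all genes) and 0 lower (against 9.75%), with a median of 0.49. These included the p53 targets Gadd45a (2.95 ± 0.37, adjusted p = 0.00122), Ccng1 (1.28 ± 0.10, adjusted p = 0.000108) and Mdm2 (0.76 ± 0.15, adjusted p = 0.00899), and the checkpoint kinase Atr (1.43 ± 0.14, adjusted p = 0.000407). When probe sets were averaged, these genes kept their calls with differences smaller by more than 1.5 times: Mybl1 (0.56), Mcm10 (-0.94), Dbf4 (0.60), Cdt1 (0.68), Anln (1.53), Spc25 (0.52), Atr (0.89) and Mdm2 (0.43).

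Whole liver RNA mixes cell types, and fewer cells of a type cannot be told apart from less RNA per cell. Of 8 hepatocyte genes 0 were higher and 1 was lower, the receptor Asgr1 (-0.58 ± 0.09, adjusted p = 0.00333), and the mean level of the list ran from 13.40 to 13.44 in KO livers, against 13.41 to 13.52 in WT livers. Markers of macrophages (0 of 8), B cells (0 of 4) and T and NK cells (0 of 8) gave no call, with mean levels of 7.96 to 8.40, 4.67 to 5.04 and 4.87 to 5.02 in KO livers, against 7.57 to 8.77, 4.64 to 5.34 and 5.08 to 5.20 in WT livers. The macrophage result depended on WT liver 3, which had the lowest mean of that list (7.57). Its median difference was -0.15 with all arrays, -0.52 without WT liver 3 and 0.11 without WT liver 1. Without WT liver 3, Clec4f (-0.59, adjusted p = 0.025) and Vsig4 (-0.54, adjusted p = 0.026) were called lower. Of 5 neutrophil and 5 cholangiocyte genes 1 each was lower (Ngp and Krt19), with mean levels of 4.70 to 5.23 and 4.41 to 4.50 in KO livers, against 4.98 to 5.66 and 4.60 to 4.74 in WT livers. Of 6 endothelial genes 1 was higher (Lyve1, at least 3.56-fold, with a KO mean of 6.73 and a WT mean of 4.67, adjusted p = 0.00287) and 3 lower (Tek, Clec4g and Kdr), and of 7 stellate cell genes 2 were lower (Reln and Dcn), with mean levels of 7.53 to 7.72 and 7.53 to 7.80 in KO livers, against 7.46 to 7.73 and 7.73 to 7.94 in WT livers. Over all genes 14.2% were higher and 9.75% lower. Against that, the share of lower genes was largest in the endothelial list (3 of 6), followed by the stellate list (2 of 7). In the hepatocyte list (1 of 8) it was closer to that of all genes. These short lists were not tested against the shares of all genes. Lying below background on every array were 2 of the 5 cholangiocyte, 3 of the 8 T and NK cell, 1 of the 5 neutrophil and 2 of the 6 erythroid genes. Most lower calls in these lists were near the threshold: leaving out 1 array gave adjusted p of up to 0.116 for Krt19, 0.127 for Ngp, 0.123 for Tek, 0.121 for Clec4g, 0.141 for Kdr and 0.137 for Dcn. Centring on the control probe sets adds 0.44 to every difference, so the 0 lower genes it left in these lists do not test these calls. The same centring made 11086 of all 18193 genes higher. Of the 8 hepatocyte genes it made 6 higher, and of the 7 stellate genes 3. Of the 8 T and NK cell genes 3 became higher, and of the 6 endothelial genes 2. The other lists had 0 or 1 higher. The part of these cells in the higher cell cycle genes was not tested.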

How the data were processed

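Total RNA of 6 livers (3 KO, 3 WT) was measured on 1 Affymetrix array each. The authors summarised each probe set with RMA, per the submitters' processing notes (no version is named). The deposited numbers run from 2.15 to 14.9 and were therefore taken as log2; RMA forces the arrays towards 1 distribution. Of 45101 probe sets, 34945 have 1 symbol, 932 several and 9160 are not listed in the annotation; 64 are controls. The brightest single-symbol probe set stood for each of 18193 genes. KO was compared with WT with limma 3.58.1 (R 4.3.3), using lmFit followed by eBayes, two-sided, with Benjamini-Hochberg adjustment over all genes; an adjusted p under 0.05 made a call. The procedure was tested on simulated data. Genes below background (4.90) on all WT arrays have bounds in place of folds, against the higher of background and each WT value. The labels record no date or batch. The members and gene lists were chosen with earlier results of these data known. Every member could be named; of each pathway list, up to 4 called genes with the largest absolute difference were named, of the inhibitors all, and of each cell type list up to 2. Outside this rule, Clec4g, Kdr, Rbl2, E2f7, Slc4a1, Clec4f and Vsig4 were named after their values were seen. Alternatives were the replicate number as a block, quantile normalization, centring on the array median or on 45 control probe sets, averaged probe sets, genes above background only, eBayes with trend and robust settings, weights per array, a lower p threshold or a 2-fold minimum, and each array omitted in turn.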

Additional observations from a re-analysis of the deposited data

How the results depend on the processing

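Of the 24 genes called higher, 18 kept the call under every alternative fit that tested them, and of the 2 called lower, Tk1 did; over the single genes, 565 of 633 comparisons with an alternative kept both direction and call. Members higher in KO numbered 24 as reported, 24 with the replicate block and 20 to 24 without 1 array. They numbered 14 at 2-fold or more and 38 centred on the control probe sets. All 2-fold counts here use differences as measured. Those of higher members include Ccnb2, Birc5, Ect2 and Nusap1, with bounds of at least 1.45, 1.84, 1.42 and 1.27-fold. Members lower in KO numbered 2 as reported and with the replicate block, 1 to 2 without 1 array, 3 with quantile normalization, 1 with array-median or control centring, averaged probe sets, trend and robust eBayes or an adjusted p under 0.01, and 0 at 2-fold. G1 members higher in KO numbered 3 (8 with control centring, 2 at 2-fold, 3 to 4 without 1 array), and G1 members lower 0 (1, Ccnd2, with quantile normalization). S members higher in KO numbered 5 (9 with control centring, 3 at p under 0.01, 1 at 2-fold, 3 to 6 without 1 array) and lower 1 (0 at 2-fold). Mitotic members higher in KO numbered 16 (21 with control centring, 12 over genes above background, 11 at 2-fold, 14 to 16 without 1 array) and lower 1 (0 with either centring, averaged probe sets, trend and robust eBayes, p under 0.01 or 2-fold, 0 to 1 without 1 array). All genes higher in KO numbered 2589 (11086 with control centring, 1285 at p under 0.01, 550 at 2-fold, 1497 to 2424 without 1 array) and lower 1774 (475, 732, 327 and 888 to 1679 in the same order).

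Centring on the control probe sets adds 0.44 to each difference by construction and turned the sign of Ccnd2 (0.21), Ccnd3 (0.31), Cdk2 (0.36), E2f1 (0.12), Tyms (0.17), Foxm1 (0.24), Bub1b (0.11), Cdc20 (0.073), Tpx2 (0.35), Kif23 (0.36), Cdkn2a (0.17), Cdkn3 (0.43), Ngp (0.0039), Dcn (0.11), Kdr (0.13) and Clec4g (0.02). Averaging probe sets turned Cdc20 (0.96) and Tpx2 (0.11). Differences near 0 also turned: Cdkn3 with quantile normalization (0.076), array-median centring (0.033) and array weights (0.0046) and, without 1 array, from -0.068 to 0.030, Ccne1 from -0.063 to 0.28 and Kif23 from -0.24 to 0.031; the cause was not tested. Same-numbered KO and WT livers correlated at 0.105, -0.018 and 0.105 in their deviations from the group means, so the numbers were not taken as pairs; the replicate block gave Mcm4 a call (adjusted p = 0.0441) and took that of Plk1 (0.0644). Few arrays and dim probe sets limit what could be called: 8 members lay below background on every array.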
